A study of Homo sapiens with 4 samples.

Results

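The ubiquitin C-terminal hydrolase (UCH) family, which has 4 genes in humans (*UCHL1*, *UCHL3*, *UCHL5* and *BAP1*), was analysed in HML58-3 cells after treatment with DNA-demethylating drugs. The members were chosen by name, as all gene probes whose RefSeq accession belongs to one of these genes, and 5 probes of 4 genes were found among 58201 gene probes, of which 34892 could be named and belonged to 25006 genes. HML58-3 is a derivative of the human colon cancer line HCT116, engineered to carry a luciferase reporter (*MetLuc*) under an added copy of the methylated *UCHL1* promoter. The cells were given mock treatment or 1 μM of DAC (decitabine), OR-2003 or OR-2100, and the total RNA was hybridised to 1-colour Agilent expression microarrays. In the study's luminescence assay, cells were seeded on day 0, given drug freshly dissolved in DMSO on day 1, and measured on day 5. Its array methods give no days, and the same schedule is assumed here. DAC is a cytidine analogue that is built into DNA and traps DNA methyltransferases, and the study developed OR-2003 and OR-2100 as prodrugs of it. All 4 groups shared the cell line and its reporter, and are assumed to share the schedule. Each group was 1 array, so differences between groups stand without replicates and without p-values. Values with the drugs are given in the order DAC, OR-2003, OR-2100 throughout. The RNA came from whole cultures, in which more cells expressing a gene and more RNA per expressing cell cannot be told apart.

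UCH enzymes are cysteine proteases that cut ubiquitin from the end of small adducts and from ubiquitin precursors, and so help to keep the pool of free ubiquitin. UCHL1, also called PGP9.5, is one of the most abundant proteins of neurons and neuroendocrine cells, and the CpG island at its promoter is methylated in many cancers. UCHL3 is its closest relative, is made in most tissues and also releases the ubiquitin-like protein NEDD8 from its precursor. UCHL5 (UCH37) works on the proteasome, where ADRM1 holds it, and in the INO80 chromatin remodeller, where NFRKB holds it. BAP1 is a nuclear tumour suppressor that, with an ASXL protein, removes ubiquitin from histone H2A in the PR-DUB complex.

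The stretch of *UCHL1* covered by the study's methylation-specific primers for the endogenous gene lies just before the start of the gene. In its dose series on cultured cells, the study followed the added copy of this promoter, with separate primers, and the *OSR2* promoter. It is shown here because DNA methylation sits on the cytosines of CG dinucleotides, and because the reporter of the cells carries the same promoter. The sequence is from RefSeq, build GRCh38.p14, chr4:41256678-41256927, plus strand, and ends 1 base before the annotated transcription start. Its 20 CG dinucleotides are in capitals.
UCHL1 promoter, 250 bases: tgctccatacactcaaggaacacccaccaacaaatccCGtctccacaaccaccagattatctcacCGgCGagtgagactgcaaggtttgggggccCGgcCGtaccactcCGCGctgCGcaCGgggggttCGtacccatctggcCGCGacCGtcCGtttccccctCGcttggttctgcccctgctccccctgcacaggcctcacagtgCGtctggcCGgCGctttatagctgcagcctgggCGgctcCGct

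The methylation-specific primers of the study for the endogenous gene, a pair for methylated and a pair for unmethylated DNA, matched this window after bisulfite conversion in silico with 0 mismatches. The amplicon of the methylated pair is 100 bases long and runs from 122 to 23 bases before the transcription start, that of the unmethylated pair is 106 bases long and runs from 125 to 20 bases before it, and each holds 9 of the CG dinucleotides. The methylation data themselves were not analysed here. With the first 50 transcribed bases added, the *UCHL1* window of 300 bases held 25 CG dinucleotides and 63% G and C, and its ratio of observed to expected CG was 0.87. Among 35116 RefSeq windows of this length, the median was 14 CG dinucleotides with quartiles of 4 and 28, and 32.0% of windows had as many as *UCHL1* or more.

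The relatives of *UCHL1* had windows of like CG content. *UCHL3* had 2 annotated start sites, with 28 and 24 CG dinucleotides, and *UCHL5* had 3, with 29, 17 and 24. A window for *BAP1* was not used here. A count of CG dinucleotides describes the sequence and says nothing of whether they were methylated in these cells.

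*UCHL1* was dark on the mock array and among the brightest probes on each drug array. The background-corrected intensity of its probe was 1.78 on the mock array, with an error of 1.78 from the scanner software, 17232 ± 1723 with DAC, 18112 ± 1811 with OR-2003 and 18086 ± 1809 with OR-2100. On the mock array, its spot had a median pixel value of 28 against a local background of 26, and the software did not mark it as well above background, which is called dark here. The 3 drug arrays lay close together and far from the mock array.

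Intensities were put on a common scale as log2 values, on which the 75th percentile of each array's gene probes is 0. On this scale, *UCHL1* had a level of -6.42 on the mock array and 6.61, 6.77 and 6.69 with the drugs. With the drugs, its signal stood at percentiles 98.8, 98.9 and 98.9 of the gene probes of the array, while on the mock array it was among the undetected probes, which have no order. Since the probe was dark on the mock array, only a lower bound of the difference can be had. For it, the mock signal was replaced by 7.81, the dimmest intensity that the software marked as well above background. This is called the limit of detection here, although some brighter probes were dark too, such as that of *STMN2* at 8.58. For such a probe its own signal was used, so that its bound is approximate. The lower bounds of *UCHL1* were 10.90, 11.05 and 10.97 on the log2 scale.

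Following the study's methods, a probe counts here as induced by a drug if its signal exceeded the mock signal 2-fold or more and its level with the drug reached -1. As the mirror image, a probe counts as reduced if its signal was 2-fold or more under the mock signal and its mock level reached -1. *UCHL1* was induced by each drug and none of the other 4 probes of the family was induced or reduced by any. Of all gene probes, 3.44%, 3.53% and 3.5% were induced by the respective drugs, and 4.03%, 4.07% and 4.49% were reduced.

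*UCHL3* was expressed on every array at nearly the same level. Its intensities were 1955 on the mock array and 2027, 1898 and 2022 with the drugs. The differences from mock after scaling were -0.16, -0.17 and -0.16 on the log2 scale, with an SD between repeat spots of 0.085, 0.084 and 0.085. There were 27921 bright probes, meaning probes well above background on each of the 4 arrays, and their median difference was itself -0.21, -0.19 and -0.23. Relative to that median, *UCHL3* stood at 0.05, 0.02 and 0.07. The 3 differences turned positive when *GAPDH* or the 75th percentile of the bright probes set the scale, and quantile normalization turned the one with OR-2100, so that no direction can be given for *UCHL3*.

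*UCHL5* had 2 probes, whose differences from mock were unequal. The probe with 10 spots on each array had mean intensities of 1318, 1380, 1300 and 1301 on the mock, DAC, OR-2003 and OR-2100 arrays, and the SD of its spots was 0.071, 0.086, 0.077 and 0.069 on the log2 scale. Its differences from mock were -0.14, -0.15 and -0.22, close to the median of the bright probes, and some or all of them turned positive under quantile, bright-probe and *GAPDH* scaling. The other probe, with 1 spot, had intensities of 778, 656, 584 and 632, lower with each drug than on the mock array. Its differences were -0.46, -0.54 and -0.51, with SDs of the difference, from repeat spots of other probes, of 0.091, 0.088 and 0.090. Relative to the median of the bright probes, the differences were -0.25, -0.35 and -0.28. With *GAPDH* as the scale they were 0.11, 0.06 and 0.18. Both probes carry the same accession, and the files do not say where in the transcript they bind.

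*BAP1* was somewhat higher with each drug. Its intensity was 375 on the mock array and 510, 539 and 530 with the drugs. The differences were 0.24, 0.40 and 0.30, or 1.18, 1.32 and 1.23-fold, with SDs of the difference, from repeat spots of other probes, of 0.097, 0.091 and 0.093. Of the bright probes, 23.9%, 18.3% and 21.3% had a difference as high or higher. The differences were positive under each alternative tried, from 0.12 to 1.00.

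The 3 drugs were compared with each other at the same dose over 15 pairs, 3 for each of the 5 probes. No pair differed by more than 0.16 on the log2 scale. The 95% interval of each difference was computed from the spread between repeat spots, which covers spot noise alone and neither cultures nor arrays, and 12 of the 15 intervals held 0. *UCHL1* was higher by 0.16 with OR-2003 than with DAC (95% interval from 0.01 to 0.30). It was higher by 0.07 with OR-2100 than with DAC (-0.07 to 0.22), and the difference of OR-2100 from OR-2003 was -0.08 (-0.23 to 0.06). The other pairs whose interval left out 0 were those of the 10-spot *UCHL5* probe, which was lower with OR-2100 than with DAC (-0.08, from -0.14 to -0.02) and than with OR-2003 (-0.08, from -0.13 to -0.02). For *BAP1*, the difference of OR-2003 from DAC was 0.16 (-0.03 to 0.36). These differences are as small as the shifts that another scaling gives. The sign of the difference between OR-2100 and OR-2003 at *UCHL1* turned under quantile, median and *GAPDH* scaling.

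Probes with the pattern of *UCHL1*, undetected with mock treatment and well above background with each drug, numbered 2775, or 4.77% of gene probes, and stood for 1819 named genes. The lower bound of such a probe is set by its brightness on the drug arrays, so that it depends on the probe and does not measure the size of a gene's change. With this limit, the genes most like *UCHL1*, by the Euclidean distance between the 3 lower bounds, were *PNMA6E* at 0.036, *CT45A1* at 1.92, *XAGE1A* at 2.15, *RHOXF2* at 2.39 and *EZHIP* at 2.55. *XAGE1A*, *CT45A1* and *RHOXF2* are cancer-testis or germline genes, and *EZHIP* encodes an inhibitor of the histone methyltransferase EZH2. The lower bounds of *EZHIP* were 731, 727 and 719-fold. For *PNMA6E*, the probe like that of *UCHL1* had approximate bounds of 1943, 2144 and 2037-fold, as ratios to its own undetected mock signal of 8.53. Its other probe had bounds of 2.54, 2.38 and 1.83-fold and was too dim with the drugs to count as induced. The likeness thus holds for 1 of its 2 probes. All 5 genes lie on chromosome X, whereas *UCHL1* lies on chromosome 4. Of the 1819 genes with this pattern, 107 (5.88%) lie on chromosome X, against 902 (3.61%) of all 25006 named genes.

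Of the 9 genes reported around *UCHL1* on chromosome 4, 2 shared its pattern of detection, *NSUN7* and *DCAF4L1*, against 1819 of all 25006 named genes. Of these 2, only *DCAF4L1* was induced. *UCHL1-DT*, a divergent noncoding transcript also called *UCHL1-AS1*, starts 201 bases from the *UCHL1* start on the opposite strand, and the same 300-base window covers both starts. Its 2 probes had intensities between 1.51 and 2.15 on the 4 arrays and were not well above background on any, as were 37.5% of all gene probes. On the drug arrays, then, signal was detected on one side of the shared window and not on the other.

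On the *UCHL1-DT* side, the next gene with a probe was *APBB2*, which encodes an adaptor that binds the amyloid precursor protein. Its brighter probe fell from 479 on the mock array to 240, 194 and 208 and was reduced by each drug, with differences of -1.21, -1.43 and -1.41. Its dimmer probe had differences of -0.53, -0.65 and -0.65 and was not. *NSUN7*, an RNA methyltransferase family gene, went from an intensity of 1.87 to 11.2, 11.1 and 11.2, just above the limit of detection and too dim to be counted as induced. The brighter probe of *RBM47*, an RNA-binding protein gene, had differences of -0.91 and -0.86 with DAC and OR-2003 and was reduced by OR-2100, from 529 to 305, and *CHRNA9*, a nicotinic receptor subunit gene, was dark on every array.

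On the other side, *LIMCH1*, which encodes an activator of non-muscle myosin, had a probe reduced by each drug, from 384 to 170, 178 and 183. Its dimmer probe had differences of 0.20, 0.06 and -0.07. The noncoding *LINC00682* was dark on every array. *TMEM33* had differences of 0.06, 0.06 and -0.12. *DCAF4L1*, the last gene read on this side, was dark on the mock array at 4.21 and reached 135, 102 and 129 with the drugs, so that it was induced by each, at least 11.9-fold.

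None of the nearest neighbours of the other members was induced or reduced by any drug. Beside *UCHL3* lie *COMMD6*, whose brighter probe had differences of -0.78, -0.76 and -0.94, *TBC1D4* with 0.51, 0.34 and 0.36, *LMO7-AS1* and *LMO7*. Beside *UCHL5* lie *RGS2*, with 0.40, 0.46 and 0.30, *RGS2-AS1*, *GLRX2* and *RO60*. Beside *BAP1* lie *PHF7*, with 0.86, 1.09 and 0.52 at levels under -1, and *SEMA3G* with 0.94, 0.78 and 0.72. On its other side lie *DNAH1*, with -1.13, -0.82 and -0.75, and *GLYCTK-AS1* with -0.04, 0.05 and -1.26, both at levels under -1. The *BAP1* differences of 0.24 to 0.40 were thus smaller than those of *PHF7* and *SEMA3G* on one side, while *DNAH1* on the other side was lower with each drug.

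The substrates and partners of the family were described with 1 probe per gene, the one with the highest mean signal. Of all 25006 named genes taken this way, 5.27% were induced and 5.21% reduced by all 3 drugs. The shares induced by each drug were 5.77%, 5.89% and 5.81%, and the shares reduced were 5.96%, 6.05% and 6.82%. The median differences of all named genes were -0.12, -0.09 and -0.23. The 8 reported genes of ubiquitin precursors and activation, among them the precursors *UBB* and *RPS27A* that UCH enzymes can process, were well above background on every array. None of them was induced or reduced by any drug, and their median differences were -0.06, -0.05 and -0.14. *UBB* had differences of 0.15, 0.19 and 0.07, and *RPS27A* had -0.56, -0.46 and -0.70. *NEDD8*, whose precursor UCHL3 can process, had 0.01, 0.11 and -0.16.

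The 18 partners of UCHL5 in the proteasome cap and in INO80 were likewise well above background on every array and none was induced or reduced. Their median differences were -0.04, -0.13 and -0.11. *ADRM1*, the proteasome receptor that activates UCHL5, had differences of 0.51, 0.44 and 0.48, and *NFRKB*, which holds UCHL5 inactive in INO80, had 0.16, -0.27 and 0.11. The largest negative differences were those of *RUVBL1*, an ATPase of INO80, with -0.54, -0.73 and -0.74.

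Among 10 partners of BAP1, 2 (20%) were reduced by all 3 drugs and none was induced, against 5.21% and 5.27% of all named genes. *OGT*, which encodes the enzyme that attaches O-GlcNAc to proteins, fell from an intensity of 4916 on the mock array to 2107, 2059 and 2201, with differences of -1.43, -1.38 and -1.37. *MBD6*, a subunit of PR-DUB, fell from 743 to 357, 354 and 415, with differences of -1.27, -1.19 and -1.04, and its dimmer probe had -0.77, -0.58 and -0.70 and was not reduced. *FOXK1*, a forkhead factor that recruits BAP1 to chromatin, had -0.92, -1.08 and -1.03. *MBD5*, the paralogue of *MBD6*, had -1.74, -1.54 and -1.46 and was too dim on the mock array to count as reduced. *ASXL1*, an activating partner, had 0.69, 0.72 and 0.59, *HCFC1* had -0.05, -0.03 and -0.33, and *ASXL3* was dark on every array. The medians of the list were -0.65, -0.62 and -0.76, against -0.12, -0.09 and -0.23 over all named genes, while *BAP1* itself had positive differences. With *GAPDH* set equal on all arrays, every difference is higher by 0.56, 0.60 and 0.69 for the respective drugs.

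Outside the UCH family, 88 of 90 listed genes of deubiquitinase families had a probe, and 81 of these were well above background on all 4 arrays. They were listed by family and are called deubiquitinases here, whether or not each protein is an active deubiquitinase. Of the 88, 5 (5.68%) were induced and 5 (5.68%) were reduced by all 3 drugs, shares near the 5.27% and 5.21% of all named genes. The balance depended on the scaling, with 12 induced and 0 reduced under *GAPDH* scaling, 4 and 8 under median scaling, and 3 and 1 under normexp correction, a model-based removal of background. The pattern of *UCHL1*, dark on the mock array and well above background with each drug, was seen in 1 of them, *USP2*, whose level stayed under -1.

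Of the 51 USP genes, 2 were induced. *USP18*, which removes the interferon-induced modifier ISG15, went from 271 to 996, 789 and 1147, with differences of 1.67, 1.42 and 1.88. The brightest probe of *USP31* had differences of 2.02, 2.21 and 2.30, but its other 2 probes lay between -0.05 and 0.25. The reduced USP genes were *USP7*, which acts on MDM2 and p53, with -1.12, -1.12 and -1.31, *USP9X*, *USP25* and *USP40*. Of the 16 OTU genes, 2 were induced and none reduced by all 3 drugs. *TNFAIP3* (A20), a brake on NF-kappaB signalling, had differences of 2.41, 2.17 and 2.45, and *OTUD6A* had 1.15, 1.30 and 1.09. Of the 21 other deubiquitinases, *MINDY1*, which trims long ubiquitin chains, was induced with 1.78, 1.89 and 1.67. *ATXN3*, the gene of Machado-Joseph disease, was reduced with -1.44, -1.43 and -1.47, and both of its probes were reduced by each drug.

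Because UCHL1 is a protein of neurons and neuroendocrine cells, 29 other genes of these cells were read on the same arrays. Of these, 6 (20.7%) were induced and 4 (13.8%) reduced by all 3 drugs, against 5.27% and 5.21% of all named genes, and 8 were dark on every array, against 23.1%. The counts depended on the settings, with 2 induced when bright probes set the scale and 10 with no level threshold, and with 2 reduced under *GAPDH* scaling and 0 at a 4-fold threshold. The list thus moved both ways, and its median differences were -0.02, 0.0049 and -0.20.

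The induced genes included neurofilament subunits. *NEFH* went from 1.90 on the mock array to 3299, 3317 and 2943, at least 365, 389 and 327-fold. Its other probe, also dark on the mock array, was induced by each drug as well, at 14.7, 14.5 and 14.6-fold its own undetected mock signal. *NEFM* reached 93.4, 103 and 111 from 1.98, at least 10.3-fold with each drug. *INA*, which encodes alpha-internexin, had differences of 4.58, 4.64 and 4.55. The third subunit gene, *NEFL*, was also dark on the mock array, and its levels of -2.33, -2.52 and -2.58 with the drugs were too dim to count as induced. *NEFH*, *NEFM* and *INA*, structural genes of the neuronal skeleton, were dark or dim on the mock array and clear with each drug.

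*STMN2*, a regulator of microtubules in growing axons, went from 8.58, not well above background, to 985, 999 and 982. After scaling, these were 99.2, 107 and 99.2-fold its own undetected mock signal. *CHGA*, which encodes chromogranin A of secretory granules, went from 1.89 to 259, 284 and 249, at least 28.6, 33.4 and 27.6-fold. *L1CAM*, an axonal adhesion molecule gene, had differences of 1.48, 1.57 and 1.80 at its brighter probe. Its other probe, dark on the mock array, had levels of -3.07, -3.23 and -3.29 with the drugs and was not induced.

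The reduced genes were expressed on the mock array by definition, since the count requires a mock level of -1. The brightest of the 3 *NCAM1* probes had a mock level of -2.12, too dim to count as reduced. It went from an intensity of 35.0 to dark with each drug. With DAC it was 4.69-fold lower, counted to its own undetected signal, and with OR-2003 and OR-2100 at least 4.79 and 5.38-fold lower. *SYT1*, the calcium sensor of synaptic vesicles, fell from 1793 to 593, 550 and 596, with differences of -1.81, -1.83 and -1.80, and its dimmer probe had -0.85, -1.26 and -1.17 at levels under -1. *SCG2* had -1.81, -1.88 and -1.73, *MAP2* had -1.30, -1.36 and -1.50, and *STMN3* had -1.30, -1.46 and -1.50. The genes dark on every array included the neuronal RNA-binding protein genes *ELAVL2* and *ELAVL4*, the synaptic vesicle gene *SYP* and the neuroendocrine transcription factor gene *INSM1*. *TUBB3*, *ENO2*, *PRPH* and *RBFOX3* were well above background on all arrays and neither induced nor reduced.

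The labelled cell type was read from 9 colon epithelial markers. *EPCAM*, *KRT8*, *KRT18*, *KRT19*, *CDH1*, *CDX2* and *LGALS4* were well above background on all arrays, *VIL1* with the drugs, and *CDH17* on none. *EPCAM* and *CDH1* were reduced by all 3 drugs, with differences of -1.49, -1.52 and -1.46 and of -1.09, -1.18 and -1.25, and *LGALS4* was induced. The median differences of the 9 were 0.59, 0.31 and 0.32. Their summed intensity, in units of the 75th percentile, was 1306 on the mock array and 1685, 1616 and 1588 with the drugs. Markers of blood, endothelial, stromal and liver cells are reported for 7 genes. Of these, *PECAM1* and *DCN* were dark on the mock array and became detectable under the level of -1, at least 8.40-fold and 6.60-fold higher with each drug, and *COL3A1* was dark on every array. *COL1A1* had differences of 0.83, 0.77 and 0.90, and *PTPRC* had -0.31, -0.27 and -0.16. The summed intensity of the 7, in units of the 75th percentile, was 2.55 on the mock array and 4.72, 4.64 and 4.99 with the drugs. Their part in the results on *UCHL1* was not tested.

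Of the other genes that the study followed, *SFRP1*, a secreted Wnt antagonist silenced by methylation in colon cancer, went from 10.8 to 117, 102 and 130, with differences of 3.22, 3.11 and 3.39. *OSR2*, a transcription factor gene whose promoter methylation the study also followed, went from 85.1 to 139, 129 and 135, with differences of 0.50, 0.48 and 0.46, and was not induced. *GAPDH*, the study's reference gene for RT-qPCR, had differences of -0.56, -0.60 and -0.69. At *SFRP1* the mock signal was marked as well above background, so that, unlike at *UCHL1*, the difference was measured on both sides. That mock signal of 10.8 lay close to the limit of detection of 7.81, so the size of the difference is uncertain. By RT-qPCR, the study reported that *SFRP1* and *UCHL1*, both described as silenced by methylation in HCT116, were re-expressed with rising dose. It also reported their expression after a short pulse of drug in HML58-3 cells. Whether RNA from the reporter, which carries the *UCHL1* promoter, reaches the *UCHL1* probe of the array was not tested.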

How the data were processed

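The authors labelled total RNA with Cy3, hybridised it to SurePrint G3 Human GE 8x60K arrays and deposited spot intensities that Agilent Feature Extraction 12.1.0.3 had corrected for background, without normalization between arrays. The deposited series table held the same values in all 62976 rows of each array (relative tolerance 0.0001). Control spots and 52 to 98 marked gene spots per array were left out, log2 intensities of the spots of a probe were averaged, and the 75th percentile of each array was set to 0, as in the study's methods. From 31601 to 33282 of 58201 probes were well above background and 0 spots were saturated. The number of arrays limits the precision. Probes were named by accession through a RefSeq table, whose assembly differs from that of the array design, so its gene coordinates are not given.

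The members and lists were chosen with earlier results of these data known. Some neighbours and members of the lists are not reported here and were left out of the list counts, sums and medians. Named were all members, the 5 nearest genes with a probe on each side of *UCHL1* and 2 on each side of the others, the 5 genes most like *UCHL1*, reference genes and markers, and in each list the genes induced or reduced by all 3 drugs. Other list members were named, with values, after these were seen, for their known tie to a member or, for *NCAM1*, for the size of its difference. Spot noise came from probes with 10 spots within 1 log2 unit. Normexp (offset 50) was run on the deposited median intensity, since the mean was not used here. Counting was tested on simulated data. Python 3.11.15, numpy 2.4.6, pandas 2.3.3, matplotlib 3.10.9, R 4.3.3 and limma 3.58.1 were used.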

Additional observations from a re-analysis of the deposited data

How the results depend on the processing

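Each condition was 1 array from a culture whose variation is unknown, and *UCHL1* lay below detection on the mock array, so that its difference is bounded from below by the array and its exact size cannot be read. Normexp correction with an offset of 50 gave *UCHL1* differences of 8.06, 8.17 and 8.08 (in the order DAC, OR-2003, OR-2100), since the offset lifts dark spots, and raising dark values to the limit of detection gave 10.90, 11.05 and 10.97. Scaling by *GAPDH* gave 13.60, 13.79 and 13.80, quantile normalization 13.34 and the 75th percentile of bright probes 13.33 with OR-2100, and median scaling 12.97 with OR-2003. Between drugs, the *UCHL1* difference of OR-2100 from DAC was 0.16 under quantile normalization and 0.20 under *GAPDH* scaling, that of OR-2003 from DAC was 0.0521 under median scaling, and that of OR-2100 from OR-2003 was 0.028, 0.0519 and 0.0044 under quantile, median and *GAPDH* scaling. Deubiquitinases induced by all 3 drugs numbered 3 with normexp, 12 with *GAPDH* and 2 at a 4-fold threshold in place of 5, and those reduced numbered 1 with normexp, 1 with bright probes, 8 with median scaling, 0 with *GAPDH*, 0 at 4-fold and 3 at a level threshold of 0 in place of 5. Of the neuronal genes, 2 were induced with bright probes and 10 with no level threshold in place of 6, and 2 were reduced with *GAPDH* and 0 at 4-fold in place of 4. *GAPDH* scaling moved the median difference of bright probes to 0.35, 0.41 and 0.46. *UCHL1* was higher than mock under each of the 9 alternatives run for it. No paired analysis was possible because the groups hold 1 array each and no test was run.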
